A study of Mus musculus with 36 samples.

Results

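The genes described here are 8 of the 20720 nuclear genes listed in the UMI tables: Tfrc, Hmox1, Fth1, Ftl1, Slc40a1, Hfe2, Slc11a1 and Blvrb. They were taken by symbol, as a set that covers iron uptake, storage and export and haem breakdown, and all 8 were listed. The set was drawn up with earlier results of these data known, and which values entered that choice is not recorded. The levels by cell class and group are therefore given as a description, and the adjusted p-values come from fits over all genes tested and are not independent evidence for the set.

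The data are single-cell mRNA counts (SORT-seq) of cells from the infarcted part of the left ventricle, or the matching part in sham mice, of the C57BL/6 strain, all male and aged 8 weeks. The groups of plates compared were 4 plates from 1 day and 8 from 14 days after sham surgery (sham day 1, sham day 14), 9, 7 and 3 plates from 1, 3 and 14 days after ischemia-reperfusion (IR day 1, IR day 3, IR day 14), and 5 plates from 3 days after permanent ligation (MI day 3). In IR the left anterior descending artery was tied off for 1 hour and then reopened, and in MI it stayed closed. The labels do not tie plates to mice, so plates may share mice, which would make p-values over plates too low. For MI day 3 the methods describe fewer mice than the plates used here, so some of those plates share a mouse. No sham group of day 3 is labelled, so IR day 3 and MI day 3 were set against both sham groups with equal weight.

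Each plate was a set of sorted wells, and 3090 wells with at least 1000 UMIs of nuclear genes were used. Clustering without the 8 genes and without 63 other iron and haem genes gave 18 clusters, of which 15 could be named from marker genes, and 439 wells stayed unnamed. The 36 plates held 176614 to 5551870 UMIs. Sham day 14 replicates 2 and 7 held the same counts and were counted as 1 plate. The median well held 13120 UMIs in MI day 3 and 2334.5 to 3230 in the other 5 groups. MI day 3 has its own protocol in the labels, and its cardiomyocyte-like wells had a median mitochondrial share of 5.44% against 73.1% to 81.2% in the other groups, so MI surgery and plate batch cannot be told apart in any comparison with MI day 3. No doublets were called. A plate entered a class only with at least 5 wells of that class. This left 4, 5, 3, 5, 3 and 2 cardiomyocyte-like plates in sham day 1, sham day 14, IR day 1, IR day 3, IR day 14 and MI day 3. Of the macrophage-like wells, 3 plates of sham day 1 and none of sham day 14 qualified, so macrophages of day 3 were set against sham day 1 alone.

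Cells take up iron by binding transferrin to the transferrin receptor, which Tfrc encodes. Surplus iron is stored inside ferritin, a shell of heavy chains (Fth1), which oxidize the iron, and light chains (Ftl1), which help it to mineralize. Iron also reaches cells inside haem: haem oxygenase 1 (Hmox1) opens the haem ring and frees the iron, and biliverdin reductase B (Blvrb) reduces biliverdin, the other product. Ferroportin (Slc40a1) is the exporter of iron, hemojuvelin (Hfe2, now called Hjv) is a bone morphogenetic protein co-receptor that acts in the liver on the hormone hepcidin and is also made in striated muscle, and Slc11a1 moves metal ions out of the phagosome of macrophages and neutrophils. In a damaged heart, macrophages clear dead cells, haem and iron among their contents.

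Of the 8 genes, 4 share a known sequence in their transcripts, the iron-responsive element, a hairpin bound by iron regulatory proteins when iron is scarce. In a 5′ UTR the bound hairpin holds back translation, whereas in the 3′ UTR of Tfrc it protects the mRNA from decay. The hairpins are printed because they part the genes whose mRNA level is known to follow iron (Tfrc) from those whose translation does (both ferritin chains and ferroportin), a difference that bears on what an mRNA count measures. The letters searched for were a C, 5 bases, the loop CAGTGN and 5 bases that pair with those before the loop, with G-T pairs allowed, on the transcript's own strand. Capitals mark the loop. Positions are on GRCm38 with the GENCODE vM21 transcripts:
Fth1, 5′ UTR, exon 2, chr19:9982735-9982757, plus strand: ctgcttcaaCAGTGCttgaacgg
Ftl1, 5′ UTR, exon 1, chr7:45459782-45459804, minus strand: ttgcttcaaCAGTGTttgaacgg
Slc40a1, 5′ UTR, exon 1, chr1:45925468-45925490, minus strand: cttcagctaCAGTGTtagctaag
Tfrc, 3′ UTR, exon 19, chr16:32631222-32631244, plus strand: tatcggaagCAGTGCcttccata
Tfrc, 3′ UTR, exon 19, chr16:32631601-32631623, plus strand: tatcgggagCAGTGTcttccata
Tfrc, 3′ UTR, exon 19, chr16:32631666-32631688, plus strand: tatcggagaCAGTGAtctccata
Tfrc, 3′ UTR, exon 19, chr16:32631713-32631735, plus strand: tatcgggaaCAGTGTttcccata

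The pattern occurred in the transcripts, coding sequence included, of 294 of 21877 protein-coding genes (1.34%), and Tfrc, with 4, was the 1 gene that held 3 or more. Hmox1, Hfe2, Slc11a1 and Blvrb held 0 matches, which says only that these letters are not in their annotated transcripts. The genes lie apart in the genome: Tfrc on chromosome 16 (32608896 to 32632794), Hmox1 on 8 (75093618 to 75100593), Fth1 on 19 (9980600 to 9985111), Ftl1 and Blvrb on 7 (45457944 to 45459886 and 27447978 to 27465981), Slc40a1 and Slc11a1 on 1 (45908070 to 45926532 and 74375014 to 74386057) and Hfe2 on 3 (96525163 to 96529216), in RefSeq's GRCm38.p6.

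The 8 genes fell into different cell classes. Levels are given as CPM, the UMIs of a gene per 1000000 nuclear UMIs of the wells of 1 class on 1 plate. Ferritin mRNA was abundant in macrophage-like wells, where both chains made up 1.48% to 4.03% of all UMIs of a plate, and in neutrophil-like wells, with 0.900% to 3.81% at IR day 1 and 0.837% to 1.21% at MI day 3, against 0.0364% to 0.717% in cardiomyocyte-like wells. Hmox1, Slc11a1 and Blvrb were also highest in macrophage-like wells among the 4 classes tested. Hfe2 was a cardiomyocyte transcript: 299.6 ± 106 CPM in sham day 1 (SD, n = 4) and 436 ± 126 in sham day 14 (n = 5), against 0 to 29.4 CPM on the macrophage-like plates of sham day 1. Tfrc had its highest pooled level among these classes in cardiomyocyte-like wells of IR day 3 (321 CPM over all plates), and Slc40a1 was low in each class, with 0 to 352 CPM on a macrophage-like plate.

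Cell classes were named from genes that are not members, but the wells were clustered on their expression, so class against class was not tested. As a check at the limit for using a well, the 221 wells with up to 100 UMIs too few and the 162 wells with up to 100 more than needed held 62.2 and 64.6 CPM of Tfrc, 492.5 and 381.8 of Hmox1, 2377 and 2496 of Fth1, 2850 and 2661 of Ftl1, and 249 and 182 of Hfe2. Slc40a1 had 19.1 and 11.7 CPM there, Slc11a1 76.5 and 41.1, and Blvrb 28.7 and 29.4.

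Not every gene had enough UMIs to be tested in each class. Slc40a1, Slc11a1 and Blvrb could not be tested in cardiomyocyte-like or fibroblast-like wells, Tfrc, Slc40a1, Slc11a1 and Blvrb in endothelial-like wells, nor Hfe2 in macrophage-like wells. Since a gene can pass that filter through the group where it is high, counts of members are a description. Over 22 comparisons within the 4 classes, 32 of 114 tests of a member passed an adjusted p of 0.05 (edgeR's quasi-likelihood test with Benjamini-Hochberg adjustment over all genes of the class, as for each adjusted p below unless another test is named).

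In cardiomyocyte-like wells 5 members were tested, beside 4326 genes in all. At IR day 1, 1 was higher and 1 lower than in sham day 1, where 11.8% of all genes were called (3.7% higher, 8.14% lower). At IR day 3, 3 were higher and 0 lower than in sham, where 6.31% of all genes were called (4.18% higher, 2.13% lower), with a median log2 change of 1.89 over the 5 members and −0.01 over all genes. At MI day 3, 3 were higher and 1 lower than in sham, beside 35.6% of all genes (13.7% higher, 21.9% lower). MI day 3 against IR day 3 gave 1 lower (22.8% of all genes called, 7.05% higher and 15.7% lower), IR day 3 against IR day 1 gave 2 higher (5.13%, with 3.47% higher and 1.66% lower), and IR day 14 against sham day 14 gave 0 (0.231%, with 0.185% higher and 0.0462% lower, 10 genes, with 203 genes at an unadjusted p under 0.05). The scaling of the libraries matters in this class: of the genes called at IR day 1, 31.2% were higher with TMM scaling and 70.6% with RLE scaling, and the median of all genes was −0.55 and 0.04 on the log2 scale. At IR day 3 against IR day 1 the shares were 67.6% and 26.9% (medians 0.46 and −0.05) and at MI day 3 against sham 38.4% and 51.3% (−0.24 and 0.06). No called member changed direction with the scaling. Of those not called here, Fth1 turned from 0.22 to −0.19 between IR day 3 and IR day 1.

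In endothelial-like wells 4 members were tested beside 3318 genes. Against sham, 1 was higher and 1 lower at IR day 1 (14.8% of all genes called, 6.18% higher and 8.62% lower), 1 higher at IR day 3 (2.02%, 1.6% higher and 0.422% lower), and 2 higher and 1 lower at MI day 3 (36.4%, 18.7% higher and 17.7% lower). MI day 3 against IR day 3 gave 1 lower (5.88%, 1.69% higher and 4.19% lower), IR day 3 against IR day 1 gave 1 higher (3.22%, 2.47% higher and 0.753% lower), and IR day 14 gave 0 (0% of all genes, 159 at an unadjusted p under 0.05). In fibroblast-like wells 5 were tested beside 6502 genes, and 1 was higher at IR day 1 (20.1% of all genes, 11.6% higher and 8.52% lower), 0 at IR day 3 (1.51%, 1.05% higher and 0.461% lower) and 1 higher at MI day 3 (18% of all genes, 11.8% higher and 6.21% lower) against sham. There, 1 was higher and 1 lower in both MI day 3 against IR day 3 (10.1%, 3.91% higher and 6.15% lower) and IR day 3 against IR day 1 (22.4%, 11.7% higher and 10.7% lower). With RLE in place of TMM scaling, the share of higher genes among those called moved from 57.6% to 46.6% at IR day 1, from 69.4% to 56.5% at IR day 3, from 65.5% to 45.8% at MI day 3 and from 38.8% to 27.5% between MI day 3 and IR day 3.

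In macrophage-like wells 7 members were tested beside 5135 genes. Hmox1 alone was called against sham, at IR day 1 (2.73% of all genes called, 0.623% higher and 2.1% lower) and MI day 3 (2.41%, 0.623% higher and 1.79% lower), and 0 members were called at IR day 3 (4.44%, 1.71% higher and 2.73% lower), where 949 genes had an unadjusted p under 0.05. MI day 3 against IR day 3 gave 1 higher and 1 lower (9.27%, 4.83% higher and 4.44% lower), and IR day 3 against IR day 1 gave 2 higher (26.4%, 14.4% higher and 12.1% lower). RLE scaling moved the share of higher genes among those called from 38.6% to 28.5% at IR day 3 and from 25.8% to 14.4% at MI day 3 against sham.

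**Figure D1:**
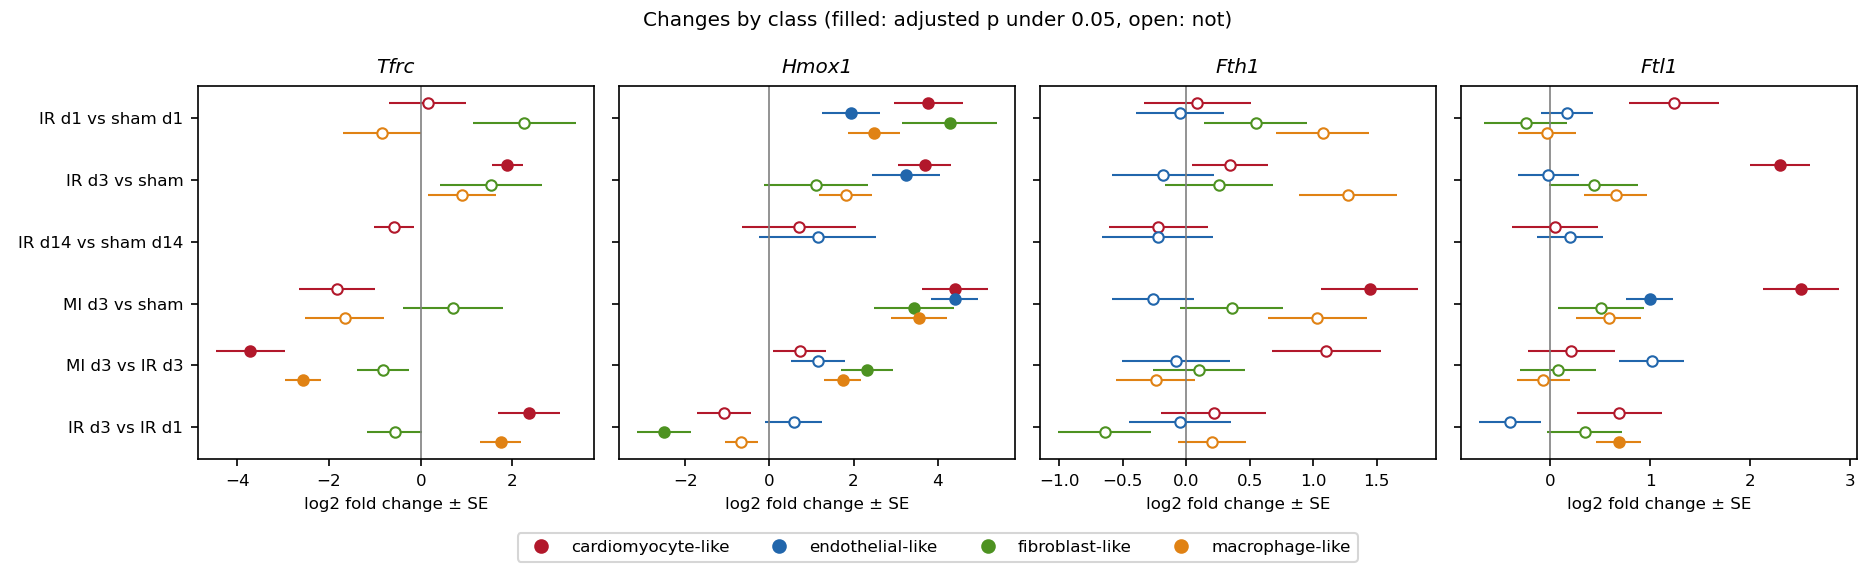
Fitted log2 fold change (x axis, with its standard error) of Tfrc, Hmox1, Fth1 and Ftl1 in 6 comparisons, 1 colour per cell class; filled points passed an adjusted p of 0.05. Hmox1 lies to the right of 0 in each class at IR day 1 and MI day 3 against sham, and Tfrc lies to the right at IR day 3 and to the left at MI day 3 against IR day 3 in cardiomyocyte-like wells.

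Tfrc, the receptor through which transferrin iron enters, rose in cardiomyocyte-like wells at IR day 3. The 4 sham day 1 plates held 61.4, 28.6, 42.3 and 28.8 CPM and the 5 sham day 14 plates 118, 136, 30.5, 91.1 and 165 CPM. The 5 IR day 3 plates held 0, 300.4, 185, 342 and 410 CPM. Of these, 4 lay above each sham plate, and the plate at 0 held 5 wells. The log2 fold change against sham was 1.89 ± 0.33 (SE, adjusted p = 9.8e-06), and the call was kept in each of 13 alternative settings and without any 1 of 14 plates. By well, 27.8% of 284 cardiomyocyte-like wells of IR day 3 held a Tfrc UMI after each well was thinned to 1000 UMIs (95% Clopper-Pearson interval 22.7% to 33.4%, 52.5% before thinning), against 3.49% in sham day 1 and 8.25% in sham day 14 (10.5% and 22.8% before). The macrophage-like wells of IR day 3 gave 6.15% (37.9% before thinning, at a median of 8383 UMIs against 2490.5), and the fibroblast- and endothelial-like wells of IR day 3 gave 2.99% and 14.7% (19.4% and 41.2% before thinning, at medians of 2760 and 3269.5 UMIs). The endothelial interval, 4.95% to 31.1% over 34 wells, overlaps that of the cardiomyocyte-like wells. These intervals cover counting error only.

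At IR day 3 the pooled Tfrc level was above both sham groups in each of the 3 clusters that held most cardiomyocyte-like wells of sham. In the cluster led by Myh14 and Myh6 the pooled level was 20.7 CPM in sham day 1, 94.6 in sham day 14 and 220 in IR day 3. In the cluster led by Fbp2 it was 41.3, 118 and 282 CPM. In the cluster led by Lgals4 and Ggnbp1 it was 67.8, 138 and 420 CPM. The cluster led by Sprr1a, Nmrk2 and Nppa, with 171 of the 284 wells at IR day 3 and 29 of the 36 at IR day 1, had 71.7 CPM at IR day 1, 344 at IR day 3 and 34.6 at IR day 14.

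Tfrc did not pass the test at IR day 1, where the 3 plates held 0, 109 and 85.0 CPM, nor at IR day 14, with 48.9, 114 and 68.7 CPM. Between the 2 days, IR day 3 exceeded IR day 1 by 2.36 ± 0.68 log2 (adjusted p = 0.025). That call was lost with RLE scaling (adjusted p = 0.11), with DESeq2 (0.19) and with the replicate number as a block. It was also lost without any 1 of 5 of the 8 plates, IR day 1 replicates 1, 2 and 3 and IR day 3 replicates 4 and 7 (adjusted p up to 0.16).

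MI day 3 differed from IR day 3 in the same receptor. Its 2 cardiomyocyte-like plates held 50.7 and 0 CPM of Tfrc, and both lay below 4 of the 5 IR day 3 plates. All 20 such wells, on 5 plates, together held 5 UMIs (21.6 CPM, exact 95% Poisson interval 7.02 to 50.5, counting error only). The log2 fold change was −3.71 ± 0.75 (adjusted p = 0.00011) against IR day 3, and −1.82 ± 0.82 (adjusted p = 0.073) against sham. Surgery and plate batch cannot be told apart here.

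Macrophage-like wells showed the same pair of Tfrc differences on a lower level. The 9 IR day 1 plates held 0 to 74.9 CPM with a median of 39.6. The 6 IR day 3 plates held 0, 34.0, 95.6, 48.8, 92.5 and 245 CPM, and the 5 MI day 3 plates 14.9, 24.8, 22.9, 16.4 and 37.1 CPM. The groups overlapped, since 1 IR day 3 plate had no Tfrc UMI. IR day 3 exceeded IR day 1 by 1.75 ± 0.45 log2 (adjusted p = 0.0040) and MI day 3 lay below IR day 3 by −2.57 ± 0.39 (adjusted p = 3.6e-05). The first call was lost without IR day 3 replicate 7 (log2 fold change 0.92, adjusted p = 0.19), and without that plate the second was −1.78 (adjusted p = 0.014). The first was also lost with DESeq2, with the replicate number as a block and with mixed-marker wells left out (adjusted p up to 0.23). The second was lost with the replicate number as a block (adjusted p = 0.12). Against the 3 sham plates, at 15.2, 16.8 and 265 CPM, no macrophage Tfrc test passed. The wells of these groups lay in different macrophage clusters, given with Hmox1 below. In fibroblast-like wells Tfrc ranged from 0 to 112 CPM and no test passed (smallest adjusted p 0.16, at IR day 1), and in endothelial-like wells it had too few UMIs to test, with 58.1 to 252 CPM on 3 IR day 3 plates and 0 to 47.1 on 8 sham plates.

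**Figure D2:**
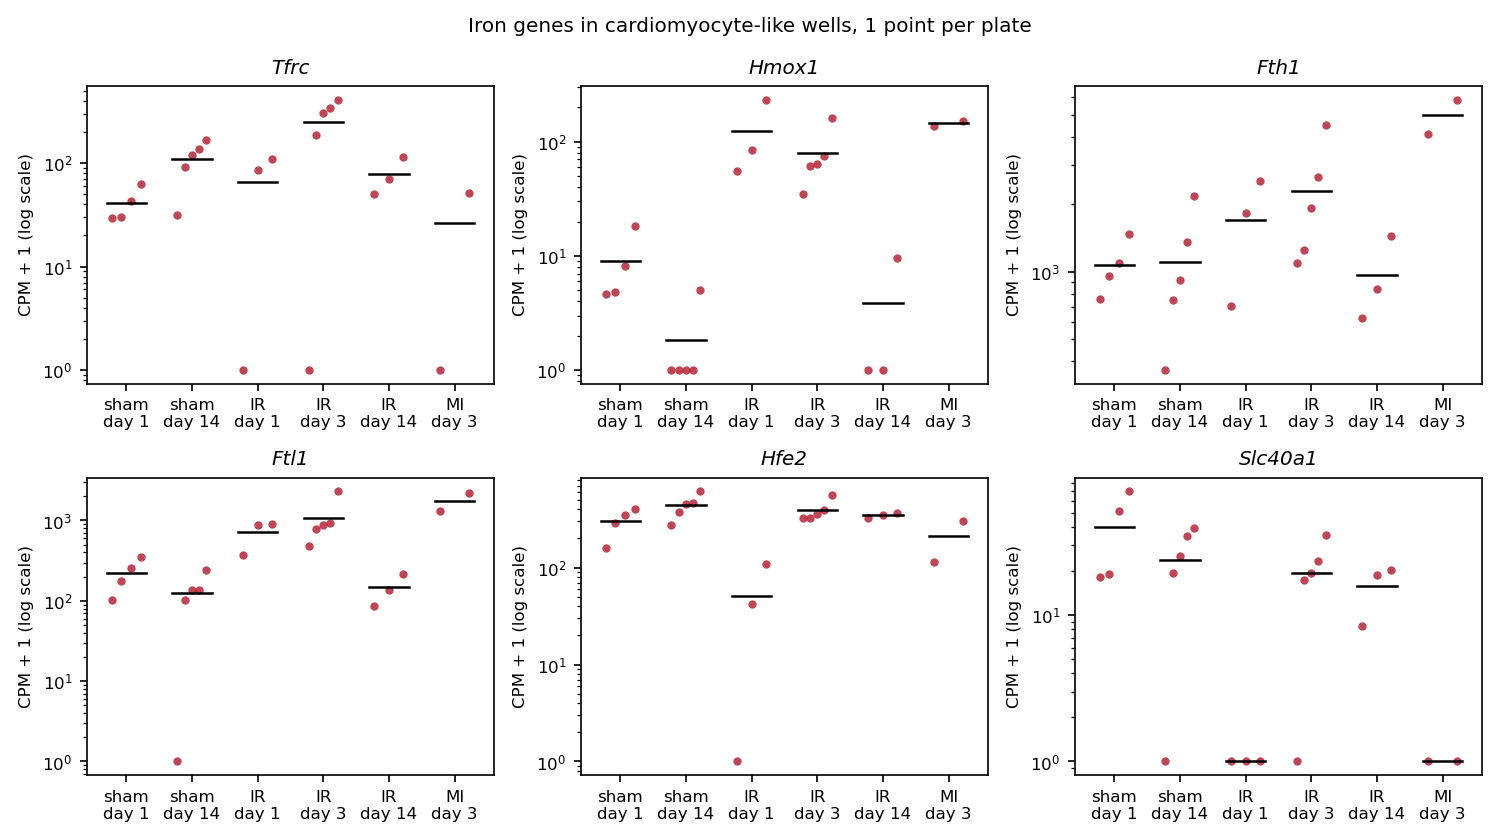
Level of 6 genes (y axis, CPM + 1 on a log scale) in cardiomyocyte-like wells, 1 point per plate with at least 5 such wells, with the group mean as a black line. Tfrc is highest on 4 of 5 IR day 3 plates, Ftl1 and Hmox1 are high in IR day 1, IR day 3 and MI day 3, and Hfe2 is lowest in IR day 1.

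Ftl1, the ferritin light chain, rose in cardiomyocyte-like wells at day 3 after both operations. Both ferritin genes have processed copies in the genome, and how the authors counted reads shared with them is not given in the sources used here, so their levels are uncertain to that extent. In sham day 1 the plates held 101, 177, 346 and 252 CPM, and in sham day 14 they held 134, 136, 244, 0 and 101. In IR day 3 they held 483, 934, 776, 2327 and 870 CPM, and in MI day 3 1305 and 2195. Each plate of both day 3 groups lay above each sham plate. The log2 fold change against sham was 2.30 ± 0.30 at IR day 3 (adjusted p = 5.8e-09) and 2.51 ± 0.38 at MI day 3 (adjusted p = 1.3e-07), and the calls were kept in each of the 13 and 10 alternatives that could be run for them and without any 1 plate. With mixed-marker wells left out, at least 10 wells per plate, or macrophage-marker wells left out, no MI day 3 test could be had here. The 3 IR day 1 plates, at 373, 869 and 914 CPM, also lay above the 4 sham day 1 plates, with a log2 fold change of 1.23 ± 0.45 that missed the threshold (adjusted p = 0.056) but passed it with RLE scaling (1.80, adjusted p = 0.0023) and DESeq2 (1.78, 0.0047). By IR day 14 the plates were at 218, 84.8 and 135 CPM, within the sham day 14 range.

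Fth1, the ferritin heavy chain, moved less in the same wells. Its plates held 758, 960.3, 1477 and 1094 CPM in sham day 1, 1352, 915, 2180, 364 and 747 in sham day 14, and 4510, 1254, 1923, 2652 and 1093 in IR day 3. IR day 3 and sham overlapped, and the log2 fold change was 0.34 ± 0.30 (adjusted p = 0.60). In MI day 3 the plates held 5864 and 4097 CPM, above each sham plate, and the log2 fold change was 1.45 ± 0.38 (adjusted p = 0.0017), which was lost without MI day 3 replicate 2 (1.01, adjusted p = 0.26) and with wells thinned to 1000 UMIs (0.81, adjusted p = 0.11). IR day 1, at 705, 2552 and 1828 CPM, did not pass (0.09 ± 0.42, adjusted p = 0.92).

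The cardiomyocyte-like wells of the groups also lay in different clusters. All 20 of MI day 3 and 29 of the 36 of IR day 1 were in the Sprr1a-led cluster, against 5 of the 229 of sham day 1, and in that cluster Fth1 was 5490 CPM at MI day 3, 2439 at IR day 1 and 1090 in the 5 wells of sham day 1. For IR day 1 and MI day 3, a change within cardiomyocyte-like wells and a change in which of them were sampled cannot be told apart, whichever gene is compared. The other clusters also held wells of IR day 3: Ftl1 was 752 CPM in the Myh14-led, 649 in the Fbp2-led and 826 in the Lgals4-led cluster, against 289, 146 and 244 in sham day 1 and 108, 169.6 and 110 in sham day 14.

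Because both ferritin chains were counted in the same wells, the light chain's share of ferritin UMIs, Ftl1 over Ftl1 plus Fth1, does not depend on library size. In cardiomyocyte-like wells it was 11.8% to 19.0% on the sham day 1 plates and 0% to 12.9% on the sham day 14 plates. It was 25.4%, 33.3% and 34.6% at IR day 1, and 9.68%, 28.8%, 42.7%, 44.3% and 46.7% at IR day 3. At MI day 3 it was 18.2%, within the sham day 1 range, and 34.9% (exact two-sided permutation test against sham, p = 0.11, adjusted p = 0.26). Of the IR day 3 plates, 4 of 5 lay above each sham plate. IR day 3 averaged 34.4% ± 15.5 (SD, n = 5) against 12.1% ± 5.75 over the 9 sham plates (exact two-sided permutation test p = 0.0080, adjusted p = 0.088 over the 22 comparisons of this share). Without IR day 3 replicate 3, the plate at 9.68%, the difference was 28.5 percentage points in place of 22.3 and the adjusted p of the exact permutation test 0.034. IR day 1 gave an exact permutation p of 0.057, where 0.029 is the smallest that 3 against 4 plates allow.

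The endothelial-like wells of MI day 3 had a light-chain share of 61.2% ± 5.44 (SD, n = 5) against 39.5% ± 7.87 on 8 sham plates (exact two-sided permutation p = 0.0031, adjusted p = 0.068). Their Ftl1 rose: sham plates held 801 to 1466 CPM in day 1 and 686 to 1143 in day 14, and the MI day 3 plates 1818, 2202, 1917, 2231 and 1748, with no overlap. The log2 fold change was 0.99 ± 0.24 (adjusted p = 0.0011) and was kept in each of the 11 alternatives that could be run, which do not include leaving out mixed-marker or macrophage-marker wells. The wells compared were not of 1 kind: 80 of 107 in sham day 1 and 51 of 72 in sham day 14 lay in the cluster led by Slc26a10 and Gbp4 (1101 and 918 CPM of Ftl1) and 23 and 19 in the cluster led by Mmrn1 and Reln (676 and 474 CPM), while 50 of 57 at MI day 3 lay in the cluster led by Cytl1, Selp and Vwf (2074 CPM), which held 42 wells of IR day 1 at 1332 CPM. A change within endothelial-like wells and a change in which of them were sampled cannot be told apart. Fth1 in the same wells was 860 to 1610 CPM in MI day 3 and 1132 to 2017 in sham (−0.26 ± 0.32, adjusted p = 0.56). In fibroblast-like wells the share averaged 34.5% ± 8.45 at IR day 1 (n = 5), with 4 plates at 28.9% to 32.4% and 1 at 49.4%, against 49.2% ± 6.55 in sham day 1 (n = 3, exact permutation p = 0.071, adjusted p = 0.23). None of the 22 comparisons of the share passed after adjustment, by the permutation test, while 4 had an unadjusted p under 0.05.

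**Figure D3:**
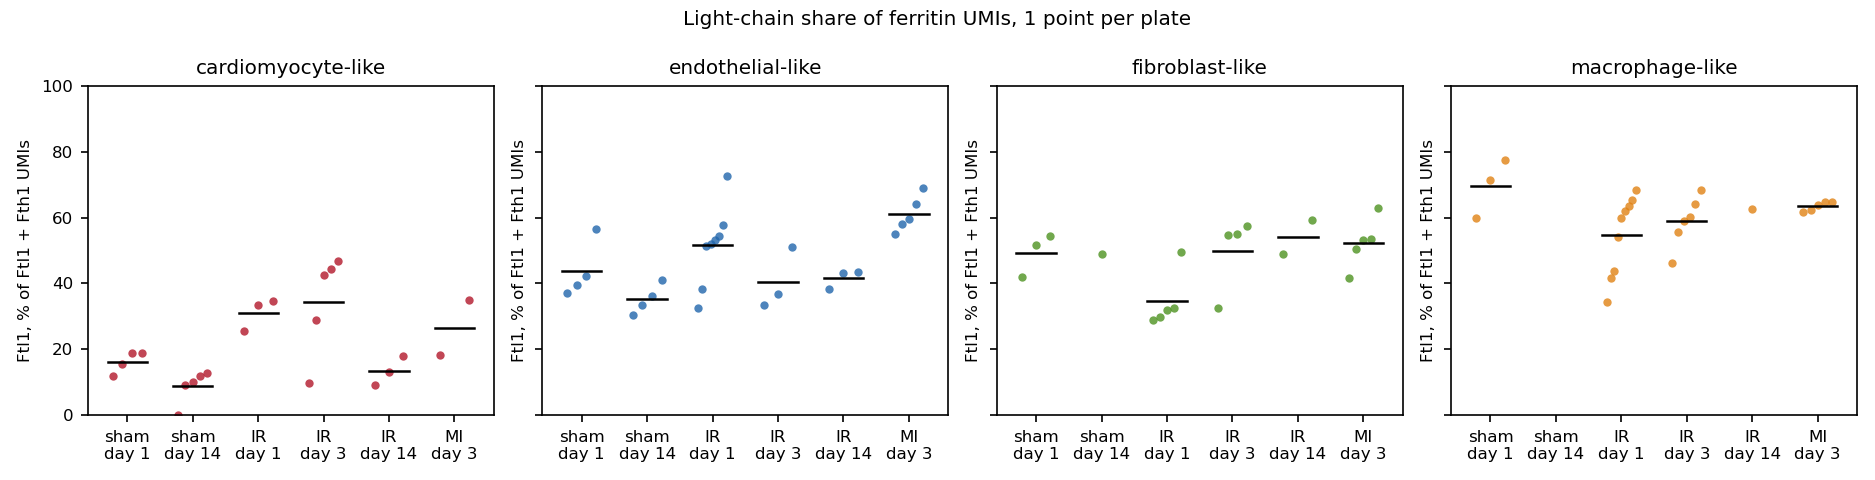
Share of ferritin UMIs that were Ftl1 (y axis, percent of Ftl1 plus Fth1) by group in 4 cell classes, 1 point per plate with at least 5 wells of the class, black line for the mean. Cardiomyocyte-like plates of sham and IR day 14 sit at 0% to 19.0%, most IR day 1 and IR day 3 plates at 25.4% to 46.7%, and those of MI day 3 at 18.2% and 34.9%. Macrophage-like plates sit at 34.3% to 77.5%.

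In macrophage-like wells ferritin was abundant in each group, and Fth1 was higher on average in the surgery groups than in sham without passing the test. Fth1 held 6023, 4986 and 3910 CPM on the sham day 1 plates, 5345 to 23022 at IR day 1 (median 8291), 7981 to 16496 at IR day 3 and 8116 to 11884 at MI day 3. Both day 3 groups lay above the sham plates with no overlap. No difference passed: 1.07 ± 0.37 (adjusted p = 0.11) at IR day 1, 1.27 ± 0.38 (0.0504) at IR day 3 and 1.03 ± 0.39 (0.17) at MI day 3. At IR day 3 it passed under 6 alternatives, RLE scaling (adjusted p = 0.049) and DESeq2 (0.019) among them, and without IR day 3 replicate 3 (0.026). Ftl1 was 8951, 12523 and 13463 CPM in sham day 1, 7386 to 14533 at IR day 1, 6860 to 25757 at IR day 3 and 15003 to 19106 at MI day 3. It was higher at IR day 3 than at IR day 1 by 0.68 ± 0.23 (adjusted p = 0.024), a call that was kept without 6 of the 15 plates left out in turn. The call was lost with the replicate number as a block, with at least 10 wells per plate and with mixed-marker wells left out. Most IR day 1 wells lay in the cluster led by Ccl17 and Ccr2 and most IR day 3 wells in that led by Gpnmb, Ms4a7 and Cd68. Within the first, Ftl1 was 11665 CPM at IR day 1 and 10613 at IR day 3, and within the second 16124 and 18941, so a change within macrophage-like wells and a change in which of them were sampled cannot be told apart.

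Hmox1, the enzyme that opens haem, was the member called most widely. In macrophage-like wells it was 91.5, 403 and 323 CPM on the sham day 1 plates. At IR day 1 the 9 plates ranged from 133 to 2535 CPM with a median of 1513, and 8 of them lay above each sham plate. At MI day 3 the plates held 3953, 3508, 2320, 3409 and 2401 CPM, all above the sham plates and the IR day 3 plates, which held 1657, 374, 1215, 1196, 257 and 1037 CPM. The log2 fold change against sham was 2.48 ± 0.62 at IR day 1 (adjusted p = 0.023), 1.82 ± 0.63 at IR day 3 (0.092) and 3.56 ± 0.66 at MI day 3 (0.0026), and MI day 3 exceeded IR day 3 by 1.74 ± 0.44 (0.0099). Both MI day 3 calls were kept in each alternative that could be run (12 against sham and 13 against IR day 3) and without any 1 plate. The IR day 1 call was lost without any 1 of the 3 sham plates and with mixed-marker wells left out (adjusted p up to 0.12).

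The macrophage clusters differed in their groups. Of the 21 wells of sham day 1, 12 lay in the cluster led by Cd209f, Lyve1 and Cd163 (182 CPM of Hmox1), which held 3 wells each at IR day 1 and MI day 3, and 8 in the Ccl17-led cluster (349 CPM). The changes against sham thus compare wells of different kinds, and a change within them cannot be told apart from a change in which were sampled. The cluster led by Gpnmb, Ms4a7 and Cd68 held 18, 161 and 125 wells at IR day 1, IR day 3 and MI day 3, with pooled Hmox1 of 3674, 1192 and 3156 CPM. The cluster led by Ccl17 and Ccr2 held 90, 21 and 154 wells and 1442, 232 and 3307 CPM. The order of the groups was thus not the same in each: MI day 3 was above IR day 3 in both clusters, and IR day 1 was above MI day 3 in the Gpnmb-led cluster and below it in the other. Thinned to 1000 UMIs, 66.0% of macrophage-like wells of MI day 3 held a Hmox1 UMI (97.5% unthinned), 45.9% at IR day 1 (78.4%), 36.9% at IR day 3 (73.8%) and 14.3% in sham day 1 (52.4%), against 0% to 0.485% in cardiomyocyte-like wells of both sham groups and IR day 14, and 19.4% at IR day 1, 5.63% at IR day 3 and 10% of 20 wells at MI day 3 in that class (36.1%, 19.7% and 65% unthinned).

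**Figure D4:**
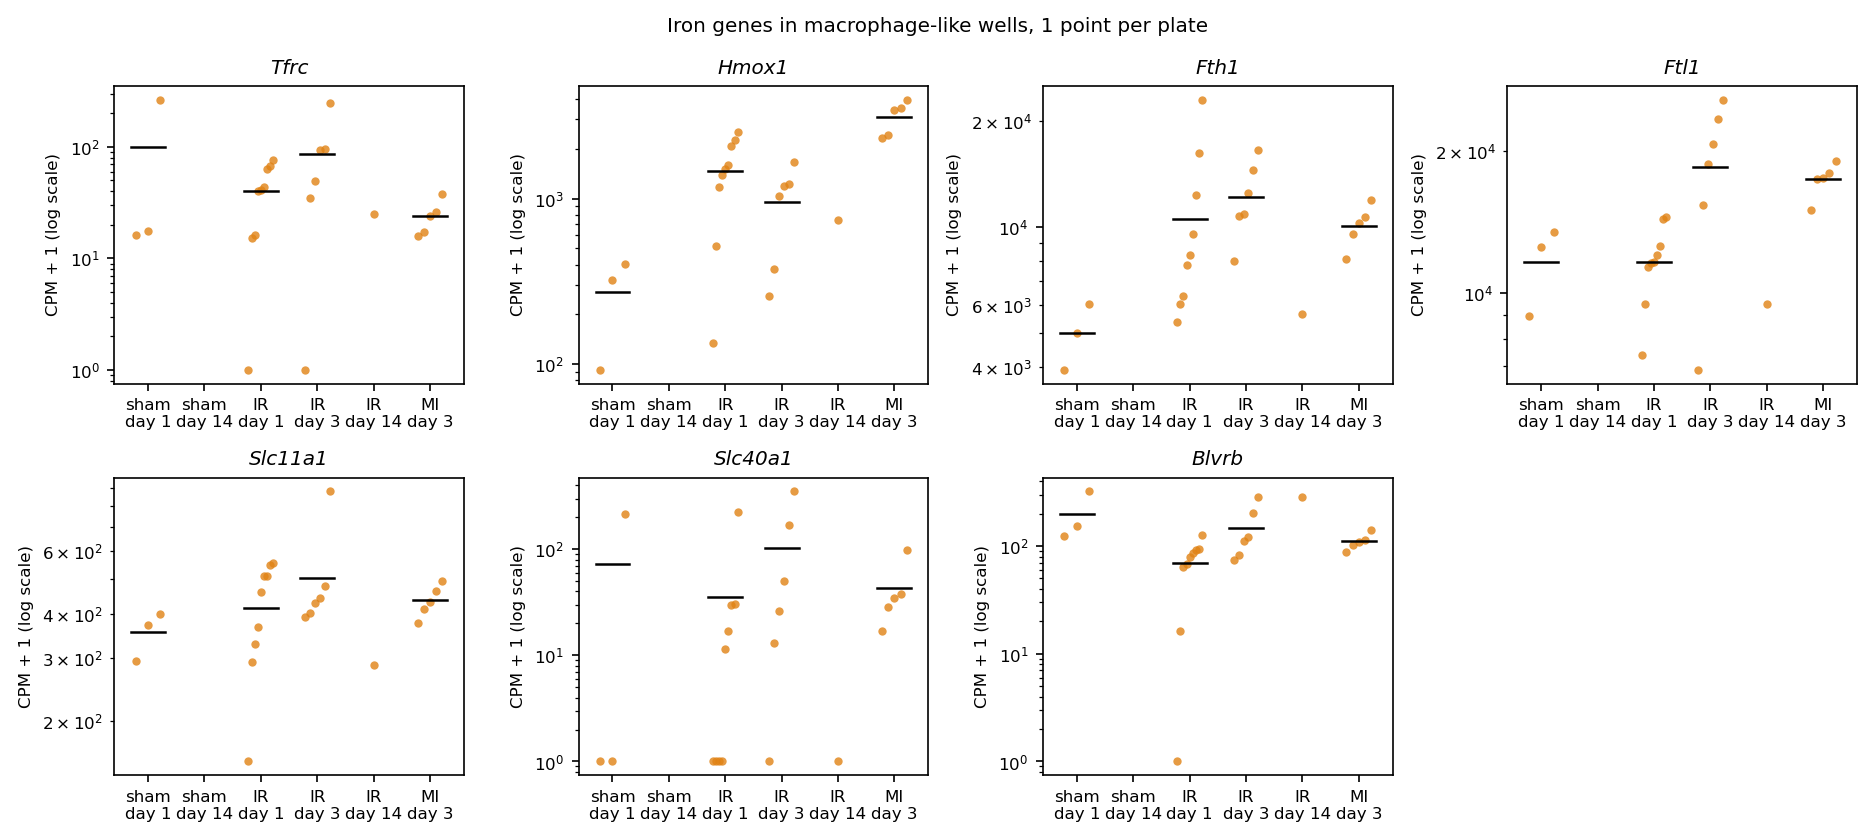
Level of 7 genes (y axis, CPM + 1 on a log scale) in macrophage-like wells, 1 point per plate with at least 5 such wells, with the group mean as a black line; sham day 14 had no such plate. Hmox1 is highest on the 5 MI day 3 plates (2320 to 3953 CPM), while Slc11a1 stays between 153 and 881 CPM and Slc40a1 between 0 and 352.

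Hmox1 was also called outside macrophages. In fibroblast-like wells the 3 sham day 1 plates held 0, 13.1 and 32.5 CPM and the sham day 14 plate 39.2. IR day 1 plates held 422, 222, 58.1, 387 and 225 CPM, IR day 3 plates 20.4, 66.0, 49.7 and 15.5, and MI day 3 plates 302, 136, 515, 116 and 101. IR day 1 and MI day 3 lay above each sham plate, and IR day 3 overlapped sham. Hmox1 rose by 4.28 ± 1.12 log2 at IR day 1 (adjusted p = 0.0084) and by 3.43 ± 0.95 at MI day 3 (0.013), and between them IR day 3 lay below IR day 1 (−2.50 ± 0.65, 0.0073) and MI day 3 above IR day 3 (2.32 ± 0.62, 0.018). The IR day 1 call was lost without sham day 1 replicate 3 (adjusted p = 0.058) and with mixed-marker wells left out. The MI against IR call was lost without IR day 3 replicate 3 or 7 or MI day 3 replicate 3. The MI against sham call was lost with at least 10 wells per plate (adjusted p = 0.086). The summed macrophage markers of these fibroblast-like plates were 0 to 293 CPM at IR day 1, 49.7 to 3833 at IR day 3, 288 to 359 at MI day 3, 0 to 91.6 in sham day 1 and 3468 on the sham day 14 plate. In the fibroblast-like wells without any macrophage-marker UMI, a choice made after seeing the data, IR day 1 differed from sham day 1 in Hmox1 by 3.85 ± 1.15 (adjusted p = 0.019).

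The fibroblast-like wells of these groups lay in different clusters. All 30 wells of sham day 1 and all 15 of sham day 14 were in the cluster led by Inmt, Scara5 and Pi16, while 42 of the 52 wells of IR day 1 and 131 of the 132 of MI day 3 were in the cluster led by Has1, Cxcl5 and Timp1. In the Inmt-led cluster Hmox1 held 2 UMIs in each sham group (13.3 and 21.2 CPM), 3 in the 10 wells of IR day 1 (44.6 CPM) and 17 in the 54 wells of IR day 3 (49.1 CPM). In the Has1-led cluster it held 341 CPM at IR day 1, 38.8 at IR day 3 and 263 at MI day 3. A change within the fibroblast-like wells and a change in which of them were sampled cannot be told apart here.

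Endothelial-like wells had 20.8, 23.7, 15.9 and 17.6 CPM of Hmox1 in sham day 1 and 6.73, 0, 11.8 and 0 in sham day 14. MI day 3 plates held 110, 180, 255, 666 and 150 CPM, each above each sham plate, and the log2 fold change was 4.40 ± 0.57 (adjusted p = 1.3e-07), kept in each of the 10 alternatives that could be run, which do not include thinned wells or leaving out mixed-marker or macrophage-marker wells. IR day 3 plates held 342, 141 and 31.5 CPM, also above sham (3.25 ± 0.81, adjusted p = 0.023), and IR day 1 plates 0 to 238 (1.94 ± 0.68, 0.049). The IR day 3 call was lost without IR day 3 replicate 3 or 4 or sham day 14 replicate 1 (adjusted p up to 0.38), and the IR day 1 call in 9 of the 12 fits with 1 plate left out. Summed macrophage markers were 349.6 to 1059 CPM on the MI day 3 plates, 0 to 780.03 at IR day 1, 228 to 2521 at IR day 3 and 20.2 to 3227 in sham. Their part in these differences was not tested. The median mitochondrial share of endothelial-like wells was 10.4% at MI day 3, 41.3% in sham day 1 and 45.1% in sham day 14. The clusters differed between groups as for Ftl1: the Cytl1-led cluster held 269 CPM of Hmox1 at MI day 3, 104 at IR day 3 and 74.3 at IR day 1, and the Slc26a10-led cluster 20.6 and 9.87 in the sham groups, 49.9 at IR day 1 and 163 at IR day 3.

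In cardiomyocyte-like wells Hmox1 was close to absent in sham, with 3.61, 17.1, 3.85 and 7.19 CPM in day 1 and 4.07 CPM on 1 of 5 plates of day 14, where 1 UMI was found in all. IR day 1 plates held 82.9, 54.3 and 234 CPM, IR day 3 plates 161, 60.8, 73.9, 34.2 and 62.4, and MI day 3 plates 152 and 136. Each of these lay above each sham plate. The log2 fold changes were 3.78 ± 0.82 (adjusted p = 0.00064), 3.69 ± 0.63 (6.5e-06) and 4.41 ± 0.78 (4.2e-06). The last pair is fitted against sham day 14 plates with 1 UMI among them, so its size depends on the prior count. The IR day 1 call was lost without IR day 1 replicate 3, the plate at 234 CPM (adjusted p = 0.22), and the IR day 3 call with the replicate number as a block. The IR day 1 and MI day 3 wells were mostly of the Sprr1a-led cluster, with 174 and 108 CPM of Hmox1 there, and sham wells mostly of the others, so the change cannot be told apart from a change in which wells were sampled. At IR day 14 the plates held 0, 0 and 8.59 CPM.

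UMIs of genes of other cell types moved with the same groups. The sum of 10 macrophage markers in cardiomyocyte-like wells was 38.5 to 155 CPM in sham day 1, 0 to 110 in sham day 14, 163 to 1020 at IR day 1, 203 to 1608 at IR day 3, 29.5 to 74.1 at IR day 14 and 190 to 453 at MI day 3, with 0 or 1 of the 10 at 0 in a group, against 3963 to 25264 in macrophage-like wells. Other markers moved too. The sum of 9 fibroblast markers in cardiomyocyte-like wells was 350.3 and 185 CPM in the sham groups, 1135 at IR day 1, 2956 at IR day 3 (629 to 4411 by plate), 878 at IR day 14 and 1086 at MI day 3, and that of 8 neutrophil markers 639 at IR day 1 against 266 in sham day 1. The part of these markers in the differences of Ftl1, Fth1 and Hmox1 was not tested. On the IR day 3 plates the markers stood at 1.17% to 8.29% of their level in macrophage-like wells of the same plate, Ftl1 at 3.31% to 9.03%, Hmox1 at 5.00% to 43.1% and Fth1 at 10.1% to 56.5%. On the MI day 3 plates the markers stood at 1.56% and 4.25%, Hmox1 at 4.33% and 5.85%, Ftl1 at 6.83% and 14.6% and Fth1 at 49.3% and 50.5%.

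Wells without any macrophage-marker UMI were also taken alone, a choice made after seeing the data, and 0 such UMIs in a well do not show that it held no macrophage RNA. Of the 284 cardiomyocyte-like wells of IR day 3, 39 had none, 34 of them on 3 plates with at least 5. In those 34 wells Tfrc held 279 CPM (178, 229 and 387 by plate), Ftl1 731 CPM (890, 267 and 929) and Fth1 1268 CPM. Against the like wells of sham, Tfrc was higher by 1.88 ± 0.50 (adjusted p = 0.034) and Ftl1 by 1.86 ± 0.39 (0.0055), and Fth1 was not (0.06 ± 0.31, 0.97). Hmox1 had 1 UMI among 93050 in these wells (10.7 CPM), too few to test. The 34 wells held 93050 UMIs, against 1285719 in all 284. At MI day 3 no cardiomyocyte-like well was without a macrophage-marker UMI, so the like value could not be had.

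**Figure D5:**
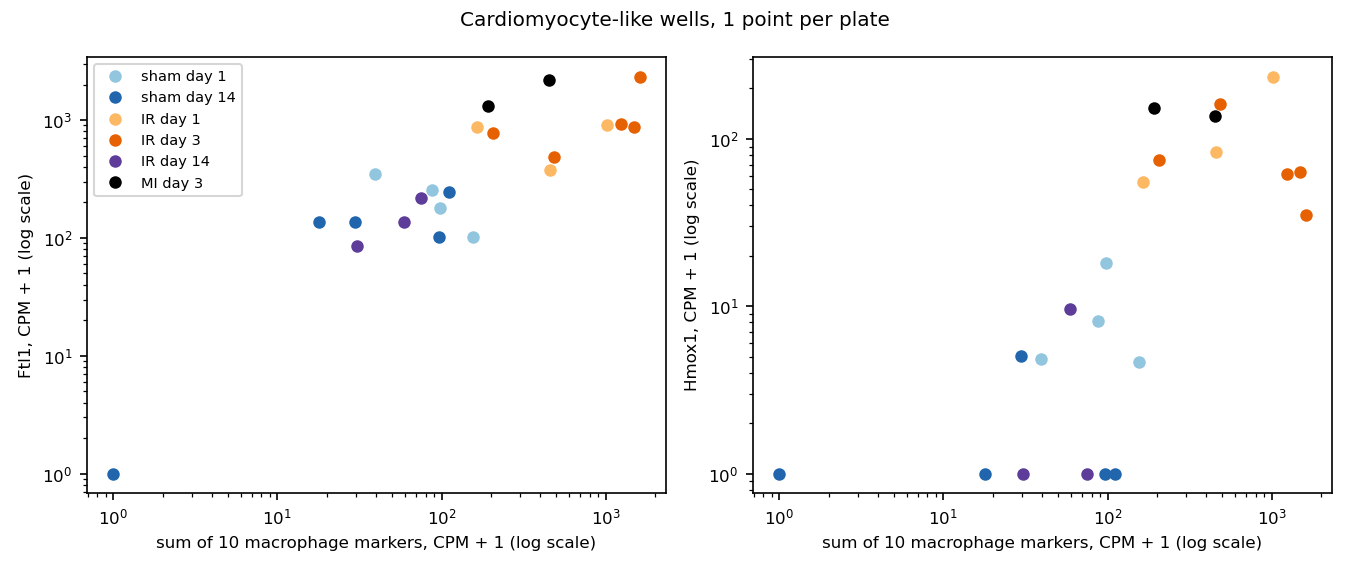
Ftl1 and Hmox1 in cardiomyocyte-like wells (y axes, CPM + 1, log scale) against the summed level of 10 macrophage markers in the same wells (x axis, CPM + 1, log scale), 1 point per plate, coloured by group. The IR day 1, IR day 3 and MI day 3 plates have more of both the genes and the markers (163 to 1608 CPM) than the sham and IR day 14 plates (0 to 155 CPM).

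Blvrb, the reductase that works after haem oxygenase, was tested in macrophage-like wells alone. It held 122, 151 and 323 CPM in sham day 1, 0 to 127 at IR day 1, 73.2 to 282 at IR day 3 and 87.9 to 139 at MI day 3. Of the IR day 1 plates, 8 of 9 lay below each sham plate, and the log2 fold change of −1.20 ± 0.43 did not pass (adjusted p = 0.13). In the cluster led by Cd209f and Lyve1, 39 wells in all, it was 363 CPM in sham day 1 and 243 in IR day 3, while the cluster led by Ccl17 had 0 and 47.3. Elsewhere Blvrb was sparse: 0 to 8.65 CPM pooled in cardiomyocyte-like wells, 0 to 62.5 on a fibroblast-like plate and 0 to 106 on an endothelial-like plate.

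Slc40a1, the exporter, passed no test. In macrophage-like wells the plates held 213, 0 and 0 CPM in sham day 1, 0 to 225 at IR day 1, 0 to 352 at IR day 3 and 15.9 to 96.4 at MI day 3. The groups overlapped, the smallest adjusted p was 0.63, and with DESeq2 the direction turned in 3 of the 5 comparisons. By cluster, the Cd209f-led wells held 196 CPM in sham day 1 and 352 at IR day 3 and the Gpnmb-led wells 18.7 at IR day 3. In cardiomyocyte-like wells, where it was too sparse to test, the 4 sham day 1 plates held 18.1, 17.1, 69.2 and 50.4 CPM. The 3 IR day 1 plates held 0, where 3 UMIs over the 3 plates would be 33.5 CPM. All 36 such wells of IR day 1, on 9 plates, held 0 Slc40a1 UMIs in 112749, where 3 UMIs would be 26.6 CPM.

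Hfe2, the hemojuvelin transcript of cardiomyocyte-like wells, fell 1 day after IR. The sham day 1 plates held 404, 286, 350.02 and 158 CPM. The 3 IR day 1 plates fitted held 41.5, 109 and 0 CPM, on libraries of 18414 to 47052 UMIs, so these levels rest on few Hfe2 UMIs. All 36 wells of IR day 1, on 9 plates, held 7 UMIs (62.1 CPM, exact 95% Poisson interval 24.96 to 128). The groups did not overlap. The log2 fold change was −3.62 ± 0.73 (adjusted p = 0.00022) and passed without any 1 plate and in each of the 10 alternatives that could be run, which do not include at least 10 wells per plate, wells of at least 2000 UMIs or macrophage-marker wells left out. At IR day 3 the plates were at 322, 352, 388, 565 and 322 CPM, within the sham range of 158 to 615 (−0.26 ± 0.29, adjusted p = 0.70), and above IR day 1 by 3.57 ± 0.73 (0.00058). IR day 14 held 363, 347 and 322 CPM. MI day 3 held 304 and 113 CPM and differed from sham by −1.46 ± 0.47 (adjusted p = 0.011), a call lost with no filter on low counts and without MI day 3 replicate 3 or sham day 1 replicate 1.

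The wells behind the IR day 1 value were a different part of the class. The Sprr1a-led cluster held 29 of the 36 cardiomyocyte-like wells of IR day 1 and 5 of the 229 of sham day 1. Within it, Hfe2 was 30.7 CPM at IR day 1, 286 at IR day 3, 317 at IR day 14 and 186 at MI day 3, where it held 20 of 20 wells. The summed cardiomyocyte markers of the plates were 34345 to 37363 CPM at IR day 1 and 30513 and 35646 at MI day 3, against 75246 to 119655 in sham and IR day 14 and 48961 to 99032 at IR day 3. Their part in the Hfe2 difference was not tested.

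Hfe2 UMIs were also counted in other classes, beside cardiomyocyte markers. In endothelial-like wells Hfe2 was 41.6 to 123 CPM in sham day 1, 106 to 202 in sham day 14, 0 to 52.7 at IR day 1, 94.6 to 342 at IR day 3 and 0 to 3.00 at MI day 3, where 2 UMIs were counted. The summed cardiomyocyte markers in these wells were 11022 to 18933, 11611 to 38556, 571 to 12039, 6500 to 25277 and 275 to 474 CPM. The test was passed at IR day 1 against sham day 1 (−2.88 ± 0.65, adjusted p = 0.0020), IR day 3 against IR day 1, and MI day 3 against sham and IR day 3. The part of the markers was not tested. In fibroblast-like wells Hfe2 held 23 UMIs at IR day 3, 1 at IR day 1 and 4 at MI day 3, with cardiomyocyte markers of 1058 to 12778, 378 to 801 and 356 to 458 CPM. Both differences with IR day 3 passed there (adjusted p of 0.0060 and 0.00040). With so few UMIs in the other groups, Hfe2 may have passed the filter on low counts through IR day 3 alone, so these p-values are a description.

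Slc11a1, the phagosome metal transporter, was a macrophage and neutrophil transcript whose level did not pass any test. Macrophage-like plates held 294 to 396 CPM in sham day 1, 153 to 555 at IR day 1, 390 to 881 at IR day 3 and 375 to 492 at MI day 3, and the largest log2 fold change was 0.42 ± 0.32 (adjusted p = 0.53, IR day 3 against sham). Its pooled level in cardiomyocyte-like wells was 0 to 17.7 CPM. In neutrophil-like wells, found in IR day 1 and MI day 3 and too few elsewhere, Slc11a1 was 519 ± 329.8 CPM (SD, n = 9) and 261 ± 190 (n = 5).

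Whether the difference between MI day 3 and IR day 3 varied among classes was tested with a class by group interaction for macrophage-, fibroblast- and cardiomyocyte-like wells. That fit treated libraries of different classes from the same plate as independent. Hfe2 was called, with fibroblast minus cardiomyocyte at −4.57 ± 0.90 log2 (adjusted p = 0.00059, where 3.11% of 9046 genes were called). Between macrophages and fibroblasts (0.497% of all genes called) and macrophages and cardiomyocytes (3.33%) no member passed. For Tfrc, fibroblast minus cardiomyocyte was 2.85 ± 1.17 (adjusted p = 0.19) and macrophage minus cardiomyocyte 1.29 ± 1.15 (0.57), and for Hmox1 the 3 differences ranged from −0.43 to 1.62 (adjusted p of 0.46 to 0.98).

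Of 64 other iron and haem genes on a list drawn up by function, 63 were in the tables. In cardiomyocyte-like wells 28 were tested, with 2 higher and 2 lower at IR day 1 (11.8% of all genes called), 2 higher at IR day 3 (6.31%) and 5 lower at MI day 3 (35.6%, with 21.9% lower) against sham, and 0 at IR day 14 (0.231%). The counts at IR day 1 and IR day 3 are near the shares of all genes, and that at MI day 3 is below it. Lcn2, which carries iron in siderophores, rose at IR day 1 from 39.7 to 365 CPM on sham day 1 plates to 539 to 1488 (1.71 ± 0.44, adjusted p = 0.0049) and was lower at IR day 3 than at IR day 1 (−2.60 ± 0.44, 1.5e-05). Against both sham groups with equal weight, Lcn2 was higher at IR day 3 (2.48 ± 0.58, 0.0019). Sham day 14 held 1 UMI, so that size depends on the prior count. Its pooled level at IR day 3, 160 CPM, was not above that of sham day 1, 210 CPM. The neutrophil and fibroblast markers of these wells were also higher at IR day 1 than in sham day 1, and their part was not tested. Nfe2l2, a transcription factor that drives Hmox1 in oxidative stress, rose at IR day 1 (1.96 ± 0.65, adjusted p = 0.034), from 14.4 to 40.01 CPM to 85.0 to 326, on 14 UMIs. The macrophage, neutrophil and fibroblast markers of these wells were higher in the same group, and their part was not tested. Alas1, the first enzyme of haem synthesis, was higher at IR day 3 than at IR day 1 (3.01 ± 0.83, 0.019), with 2 UMIs at IR day 1. Lrp1, a receptor of haem bound to hemopexin, rose at IR day 3 (1.72 ± 0.47, 0.0099), from 23.5 and 12.54 CPM pooled in the sham groups to 68.8. It held 1792 CPM in fibroblast-like wells of sham day 1, and the fibroblast markers in cardiomyocyte-like wells were highest at IR day 3. Their part was not tested. At MI day 3, Cp, the ferroxidase ceruloplasmin, held 1 UMI, Hfe 1 and Neo1, a hemojuvelin receptor, 0, where 3 UMIs would be 24.4 CPM, against 22.9 to 151 CPM of Neo1 in sham day 1 and 0 to 61.1 in sham day 14. The 20 wells of MI day 3 were all of the Sprr1a-led cluster and their summed cardiomyocyte markers 28622 CPM, against 88344 and 106882 in the sham groups, and a change within the class cannot be told apart from a change in which wells were sampled.

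In fibroblast-like wells 36 of these genes were tested, with 4 higher and 4 lower at IR day 1 (20.1% of all genes called), 0 at IR day 3 (1.51%), and 4 higher and 3 lower at MI day 3 (18%) against sham, shares near those of all genes. The sham wells lay in the Inmt-led cluster and most wells of IR day 1 and MI day 3 in the Has1-led one, as for Hmox1, so for these genes too the 2 kinds of change cannot be told apart. Slc39a14, a carrier of iron that is not bound to transferrin, rose at IR day 1 (2.22 ± 0.56, adjusted p = 0.0064), from 0 to 85.3 CPM in sham day 1 to 149 to 300.3, and was 155 to 246 CPM at MI day 3. Lrp1 fell from 1365 to 2049 CPM in sham day 1 to 389 to 779 at IR day 1 (−1.61 ± 0.29, 0.00045). Trf, transferrin itself, was lower at MI day 3 than in sham (−2.15 ± 0.43, 0.0012), at 44.7 to 71.5 CPM against 130 to 451, as was Cp (−2.05 ± 0.44, 0.0024). Steap1 and Steap2, of a family that holds iron and copper reductases, were higher at MI day 3 than at IR day 3 (1.91 ± 0.53, 0.024, and 1.35 ± 0.39, 0.029). Steap4 was lower at IR day 1 than in sham day 1 (−3.27 ± 0.90, 0.011), and between IR day 1 and IR day 3 Lcn2 was lower (−5.64 ± 1.40, 0.0060) and Hp, haptoglobin, higher (4.15 ± 1.06, 0.0075) at day 3. Lcn2 ran from 14.5 to 2436 CPM by plate at IR day 1 (median 160) and held 5 UMIs at IR day 3. Hp held 3 UMIs at IR day 1, so both sizes rest on a group near 0.

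In macrophage-like wells 28 were tested, with 0 called at IR day 1 (2.73% of all genes) and IR day 3 (4.44%) against sham and 1 lower, Cp, at MI day 3 (2.41% of all genes; −3.42 ± 0.74, adjusted p = 0.0068). IR day 3 against IR day 1 gave 5 higher and 4 lower, beside 26.4% of all genes. The groups differ in their clusters as for Hmox1, so for the genes below as well the 2 kinds of change cannot be told apart. Ncoa4, the receptor that takes ferritin to the lysosome, was higher at IR day 3 (1.64 ± 0.23, 5.1e-06), with plates of 106 to 250 CPM against 28.6 to 111, and it was lower at MI day 3 than at IR day 3 (−1.59 ± 0.21, 6.7e-06), at 62.3 to 82.6 CPM. Fbxl5, which marks iron regulatory protein 2 for destruction, was lower at IR day 3 than at IR day 1 (−2.40 ± 0.43, 0.00012). Hmox2, the constitutive haem oxygenase, was lower at MI day 3 than at IR day 3 (−0.96 ± 0.24, 0.0097). Hp was lower at IR day 3 than at IR day 1 (−2.47 ± 0.42, 5.2e-05) and higher at MI day 3 than at IR day 3 (2.22 ± 0.40, 0.00035). In endothelial-like wells 10 were tested and 1 was called, a share below the 36.4% of all genes, Pcbp1, an iron chaperone that loads ferritin, at MI day 3 against sham (0.82 ± 0.25, 0.011), with plates of 441 to 624 CPM against 182 to 459.

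Across 23 class and group sums of at least 20 wells, on log2(CPM + 10), the genes whose levels ran most alike to each member were found among 7648 genes with at least 500 UMIs. They were Gpx1 (Pearson r = 0.97) and Rab8b (0.95) for Ftl1, Gabarap (0.94) and Glrx (0.91) for Fth1, Aprt and Cstb (both 0.92) for Hmox1, and Lilrb4 and Slc15a3 (both 0.98) for Slc11a1. For Hfe2 they were 2310042D19Rik and Adck3 (both 0.97), for Blvrb Cxcl16 (0.93) and Snx2 (0.91), for Slc40a1 Plbd1 (0.86) and Sorl1 (0.78). Tfrc had no close partner, with Afg3l2 at 0.66 and Zdhhc9 at 0.63. Among the members, Ftl1 ran with Hmox1 (0.85) and Fth1 (0.85) and Tfrc with none of the others (−0.12 to 0.37). The sums share plates, and these coefficients describe cell classes as much as conditions.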

How the data were processed

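The authors mapped SORT-seq reads with BWA-ALN (version not given in the sources used here) to GRCm38/mm10 and deposited UMI counts per gene and well, 1 table per plate, from UMIs of 6 bases (4096 sequences). The deposited counts were used without collision correction, leaving out mitochondrial genes, spike-ins and 39 wells that copied wells of another plate.

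Wells of at least 1000 UMIs were clustered (scanpy 1.11.5, 2000 variable genes, 30 components, 15 neighbours, resolution 1) and clusters were named by markers. Counts were summed per plate and class with at least 5 wells, filtered with filterByExpr, TMM scaled and tested in edgeR 4.0.16 (R 4.3.3, quasi-likelihood, Benjamini-Hochberg, threshold 0.05), with 1 fit per class over all groups. The Ftl1 share was tested by exact permutation (scipy 1.17.1). The fit was tested on simulated data. Alternatives were RLE scaling, DESeq2 1.42.0, no filter on low counts, Rn45s left out, a replicate block, at least 10 wells per plate, wells of at least 2000 UMIs, a UMI collision correction, mixed-marker wells left out, thinning to 1000 UMIs, copied wells kept, iron genes kept in the clustering, each plate left out and, chosen after seeing the data, wells of other classes with a macrophage-marker UMI left out.

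The members and gene lists were chosen with earlier results of these data known. Named genes were the 8 members, up to 3 other iron or haem genes per comparison with the smallest adjusted p among those called, and the 2 genes most alike to each member.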

Additional observations from a re-analysis of the deposited data

Results flagged for a closer look

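A plate was taken as far from the rest where its gap to the nearest plate, over the range of its group, passed Dixon's 95% limit. That held for 11 of the 103 groups of 4 to 10 plates examined, and chance gives about 5%. In cardiomyocyte-like wells of IR day 3, replicate 6 held 2327 CPM of Ftl1 (others 483 to 934) and 565 CPM of Hfe2 (others 322 to 388). In endothelial-like wells, IR day 1 replicate 6 held 4136 CPM of Fth1 (others 510.6 to 2120), MI day 3 replicate 4 held 666 CPM of Hmox1 (others 110 to 255) and MI day 3 replicate 2 held 54.0 CPM of Blvrb (others 20.4 to 29.2). The light-chain share of ferritin in fibroblast-like wells was 49.4% on IR day 1 replicate 3 (others 28.9% to 32.4%) and 32.6% on IR day 3 replicate 3 (others 54.6% to 57.3%). In macrophage-like wells, Slc40a1 was 225 CPM on IR day 1 replicate 5 (others 0 to 29.4) and 96.4 CPM on MI day 3 replicate 1 (others 15.9 to 37.2), and Slc11a1 was 881 CPM on IR day 3 replicate 1 (others 390 to 475). Fth1 was 33885 CPM in neutrophil-like wells of IR day 1 replicate 7 (others 4374 to 15130).

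The difference between MI day 3 and IR day 3 in Hfe2 varied between classes, at −4.57 log2 for fibroblast- minus cardiomyocyte-like wells by the interaction test. The fibroblast-like wells held 23 Hfe2 UMIs at IR day 3 and 4 at MI day 3, beside cardiomyocyte markers of 1058 to 12778 and 356 to 458 CPM, and the part of those markers was not tested.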

How the results depend on the processing

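No called result changed direction under any alternative run. Counts of members called over the 4 classes were 6 at IR day 1, 4 at IR day 3, 9 at MI day 3 and 0 at IR day 14 against sham, 6 for MI day 3 against IR day 3 and 7 for IR day 3 against IR day 1. At IR day 1 the count was 1 with at least 10 wells per plate, 3 with wells of at least 2000 UMIs, and 2 each with mixed-marker wells left out, thinned wells and wells with a macrophage-marker UMI left out. At IR day 3 it was 9 with no filter and 2 each with thinned wells and macrophage-marker wells left out. At MI day 3 it was 3 with at least 10 wells per plate, 2 with mixed-marker wells left out, 4 thinned and 1 with macrophage-marker wells left out. MI day 3 against IR day 3 gave 3, 3 and 2 with mixed-marker wells left out, thinned wells and macrophage-marker wells left out. IR day 3 against IR day 1 gave 2 with at least 10 wells per plate, 4 with mixed-marker wells left out, and 2 each thinned and with macrophage-marker wells left out. The Ftl1 share gave 2 passing comparisons with wells of at least 2000 UMIs and 2 with at least 10 wells per plate, against 0. The interaction gave 2 with no filter and 3 with DESeq2, against 1. Hfe2 in sham day 14 cardiomyocyte-like wells was 577 CPM with Rn45s left out, against 436. The cause was not tested.

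With the replicate number as a block the counts were 5, 3, 9 and 0, 4 and 2. Lost between IR day 3 and IR day 1 were Tfrc (cardiomyocyte- and macrophage-like), Ftl1 (macrophage-like) and Hfe2 (endothelial- and fibroblast-like wells). Between MI day 3 and IR day 3, macrophage Tfrc and fibroblast Hfe2 were lost. Against sham, endothelial Hfe2 and Hmox1 were lost at IR day 1, and endothelial and cardiomyocyte Hmox1 at IR day 3. Same-numbered plates did not deviate together (median correlation −0.0096 to 0.0065 by class, lowest −0.20, highest 0.13), so the numbers name plates and do not pair them. Leaving out 1 plate at a time gave counts of 4 to 6 at IR day 1, 3 to 5 at IR day 3, 0 to 0 at IR day 14, 8 to 9 at MI day 3, 4 to 7 for MI day 3 against IR day 3, 3 to 7 for IR day 3 against IR day 1 and 0 to 2 for the Ftl1 share. Mean levels ran from 207 to 309 CPM for Tfrc (cardiomyocyte-like, IR day 3), 2910 to 3318 for Hmox1 (macrophage-like, MI day 3), 11305 to 13008 for Fth1, 17019 to 20798 for Ftl1, 51.2 to 122 for Slc40a1 and 427 to 525 for Slc11a1 (macrophage-like, IR day 3), 391 to 477 for Hfe2 (cardiomyocyte-like, sham day 14) and 137 to 237 for Blvrb (macrophage-like, sham day 1).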

Other observations

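In neutrophil-like wells ferritin was weighted to the heavy chain. Fth1 held 4374 to 33885 CPM on 9 IR day 1 plates and 4079 to 7312 on 5 MI day 3 plates, and the light-chain share averaged 37.6% ± 14.7 and 41.8% ± 9.82 (SD), against 54.7% ± 12.1 and 63.5% ± 1.46 in macrophage-like wells of the same groups. Slc40a1 held 98.4 ± 67.1 CPM in IR day 1 and 83.9 ± 72.3 in MI day 3 neutrophil-like wells, and Hmox1 183 ± 224 and 459.97 ± 226. Their summed macrophage markers were 225 to 1068 CPM in IR day 1 and 1489 to 2353 in MI day 3. Neutrophil groups were not tested.

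The 12 erythroid-like wells, 2 of sham day 1, 3 of sham day 14 and 7 of IR day 1, held 6, 35 and 107 UMIs of Ftl1 and 10, 9 and 28 of Fth1, with no Tfrc UMI. Of the 39 macrophage-like wells led by Cd209f, Lyve1, Cd163 and Timd4, the 13 of IR day 3 held 1948 CPM of Hmox1 and the 12 of sham day 1 held 182. Among the unnamed wells, those of MI day 3 held 1324 CPM of Hmox1, 6501 of Ftl1 and 3618 of Fth1, and those of the other groups 4.62 to 124, 45.5 to 2597 and 284 to 1680.1.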
